A study of Mus musculus with 4 samples.

Results

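Histone H3 dimethylated at lysine 27 (H3K27me2) was listed as peaks around Cep350, Fam163a and Suco in the paternal genome of mouse zygotes, and no peak of the maternal genome was assigned to any of these 3 genes. The genes were chosen by the fold of their peaks, since each lies nearest a paternal peak whose fold over input is among the largest of its list, so their folds are given as a description. Members were all peaks on chromosome 1 whose listed gene identifier is that of Cep350 (Entrez 74081), Fam163a (329274) or Suco (226551). They number 46 in the paternal list of Ezh2m+/p+ zygotes, 44 in the paternal list of Ezh2m-/p+ zygotes and 0 in both maternal lists, 90 of the 56036 peaks of the series. PN5 zygotes, freed of polar bodies, were made in vitro from eggs of C57BL/6J and sperm of PWK/PhJ mice. Mothers of the Ezh2m+/p+ group were Ezh2 fl/fl, and those of the Ezh2m-/p+ group Ezh2 fl/fl with Gdf9-Cre, a transgene driven by an oocyte promoter that deletes the floxed part of Ezh2 in the egg, while the paternal Ezh2 allele was intact in both. Ultra-low-input native ChIP (ULI-NChIP-seq), which recovers nucleosomes from the MNase-cut chromatin of pooled zygotes, gave 1 H3K27me2 library and 1 input library per genotype. Differences between the genotypes therefore have no replicate check, and no test was possible. The library of Ezh2m+/p+ zygotes was the more deeply sequenced. The lists hold no read counts and the deposited coverage was not used, so depth at these genes was not examined. Genotype names rest on the labels of the lists, which offer no reads of Ezh2 by which its deletion could be checked. The study's sources differ here: its reporting summary gives each list's number of peaks under the genotype of its label, whereas its panels of annotation categories give the shares of each list under the other genotype. An exchange of the 2 labels was not checked against other data and would turn every contrast between the genotypes given here.

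H3K27me2 is an intermediate state of lysine 27 methylation and is spread broadly over the chromatin of many cell types. Polycomb repressive complex 2, with EZH2 or EZH1 as its catalytic subunit, places methyl groups on this lysine, and the dimethylated form is the substrate from which the trimethylated mark is made. After fertilization the sperm genome exchanges its protamines for maternal histones, so that most marks of the paternal pronucleus are placed anew. CEP350 is a large centrosomal protein that anchors microtubules. FAM163A is a small membrane protein, also known as neuroblastoma-derived secretory protein. SUCO, a SUN domain protein of the rough endoplasmic reticulum, is needed for bone formation.

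In mm10, Cep350 lies at chr1:155844964-155973270, Fam163a follows at chr1:156075956-156205453, and Suco lies apart at chr1:161816112-161876837. All 3 genes are transcribed from the minus strand, so their starts are at the higher coordinates. The middle 300 bases of the peak of largest fold of each gene are shown so that the sequence under these peaks can be compared. They were read from RefSeq's GRCm38.p6 on the plus strand, and capitals mark CpG dinucleotides.
Cep350, chr1:155907251-155907550: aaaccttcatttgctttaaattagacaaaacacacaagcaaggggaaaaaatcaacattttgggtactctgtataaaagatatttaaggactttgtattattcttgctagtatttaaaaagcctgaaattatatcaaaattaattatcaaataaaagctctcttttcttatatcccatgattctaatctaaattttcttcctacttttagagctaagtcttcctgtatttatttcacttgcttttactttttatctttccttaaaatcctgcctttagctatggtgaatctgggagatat
Fam163a, chr1:156188851-156189150: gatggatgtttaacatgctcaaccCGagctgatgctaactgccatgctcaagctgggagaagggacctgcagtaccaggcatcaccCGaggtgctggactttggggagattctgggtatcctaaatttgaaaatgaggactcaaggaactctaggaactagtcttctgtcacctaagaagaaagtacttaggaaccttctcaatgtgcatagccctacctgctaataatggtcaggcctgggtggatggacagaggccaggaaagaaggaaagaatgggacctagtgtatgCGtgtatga
Suco, chr1:161889651-161889950: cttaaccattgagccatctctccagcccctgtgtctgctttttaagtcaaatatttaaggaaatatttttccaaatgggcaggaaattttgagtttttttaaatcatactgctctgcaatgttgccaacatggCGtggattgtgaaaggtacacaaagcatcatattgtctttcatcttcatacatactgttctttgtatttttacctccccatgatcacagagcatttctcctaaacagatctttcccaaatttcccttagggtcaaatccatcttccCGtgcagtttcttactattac
The Cep350 stretch had a GC content of 28.3% and 0 CpG, that of Fam163a 48.3% and 3 CpG, and that of Suco 37.7% and 2 CpG. Each stretch lay wholly within a paternal peak of both genotypes.

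The RefSeq promoters, from 250 bases before to 50 after the start, are shown for Fam163a and Suco because a paternal peak of both genotypes covered each of them entirely. They are written on the minus strand, with CpG in capitals.
Fam163a promoter, chr1:156204977-156205276: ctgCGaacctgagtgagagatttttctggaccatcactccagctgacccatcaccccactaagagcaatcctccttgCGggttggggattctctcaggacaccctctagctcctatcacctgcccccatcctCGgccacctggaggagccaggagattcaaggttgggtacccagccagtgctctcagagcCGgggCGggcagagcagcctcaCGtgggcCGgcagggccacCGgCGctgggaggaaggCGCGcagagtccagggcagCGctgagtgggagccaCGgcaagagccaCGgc
Suco promoter, chr1:161876633-161876932: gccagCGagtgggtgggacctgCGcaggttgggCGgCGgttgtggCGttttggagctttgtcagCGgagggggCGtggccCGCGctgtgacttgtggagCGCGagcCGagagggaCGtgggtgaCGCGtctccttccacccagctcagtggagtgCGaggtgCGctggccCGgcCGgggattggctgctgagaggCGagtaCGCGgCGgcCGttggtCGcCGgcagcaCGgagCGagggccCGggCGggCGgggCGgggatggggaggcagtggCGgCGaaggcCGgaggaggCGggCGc
The Fam163a promoter had 14 CpG, more than 63.7% of the 32851 promoters of the RefSeq table, and a GC content of 64.3%. The Suco promoter had 37 CpG, more than 94.4% of all promoters, and a GC content of 74.0%. The GC box motif GGGCGG, or its reverse CCGCCC, occurred 1 time in the first and 4 times in the second (overlapping matches counted), and at least 1 time in 35.7% of all promoters of this length. A match of these letters is a description and does not show that a factor binds there. The peak over the Fam163a start spanned chr1:156202801-156206999 (4199 bp, fold 19.6) in Ezh2m+/p+ and chr1:156202601-156208199 (5599 bp, fold 15.1) in Ezh2m-/p+ zygotes. Over the Suco start, the peaks spanned chr1:161872801-161882999 (10199 bp, fold 11.3) and chr1:161867001-161883599 (16599 bp, fold 21.5), the longest of this gene in each list. The start of Cep350 lay outside the peaks of both lists. The nearest peak began at 155973601 in both, 346 bp upstream of the listed transcript, and was 3399 bp long with a fold of 9.03 in Ezh2m+/p+ and 3999 bp long with a fold of 6.70 in Ezh2m-/p+ zygotes.

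Cep350 had the most peaks of the 3 genes, 21 in the Ezh2m+/p+ and 18 in the Ezh2m-/p+ paternal list, spread over 149 and 164 kb. More were given to 90 of 5152 genes in Ezh2m+/p+ and to 136 of 6028 in Ezh2m-/p+ zygotes. Peaks covered 52.7% of the gene body in Ezh2m+/p+ against 68.3% in Ezh2m-/p+ zygotes. The Ezh2m+/p+ peak of largest fold, at chr1:155902401-155912399 (9999 bp), was annotated to exon 18 of 38 and had a fold of 506, the second of its list. The Ezh2m-/p+ peak that contained it, at chr1:155902201-155915199 (12999 bp), had a fold of 6.79. In turn the Ezh2m-/p+ peak of largest fold, at chr1:155966601-155969799 in intron 1 (3199 bp, fold 331), overlapped no Ezh2m+/p+ peak. The gene thus had its largest fold at different places in the 2 lists, and at each of these places the other list had a fold under 10 or no peak.

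The longest Cep350 peak of Ezh2m+/p+ zygotes lay upstream of the gene at chr1:155988601-156000999 (12399 bp, fold 14.0). A single Ezh2m-/p+ peak at chr1:155981001-156005599, the longest of all members at 24599 bp (fold 42.6), covered the same place. It also overlapped the neighbouring Ezh2m+/p+ peak of 6799 bp (fold 21.8) over 6399 bp, and an Ezh2m+/p+ peak of fold 120 that is listed for another gene. The annotation placed it in a 3' UTR. Some transcripts of Cep350 start within the gene, and peaks over such a start were listed at chr1:155883001-155886199 (fold 120) and chr1:155890801-155894799 (fold 15.0) in Ezh2m+/p+ and at chr1:155888601-155896599 (fold 6.49) in Ezh2m-/p+ zygotes. Other starts within the gene lay outside the peaks. The peak at chr1:155962601-155965799 in intron 1 had the same edges in both lists, with folds of 7.52 and 6.40. It was the sole member with both edges shared. In Cep350 a smaller share of exon bases than of other bases lay in peaks. Peaks covered 29.9% of exon bases and 56.0% of the other bases of the gene in Ezh2m+/p+, and 35.5% and 73.1% in Ezh2m-/p+ zygotes. In Suco the order differed between the lists, with 43.0% of exon and 38.8% of other bases in Ezh2m+/p+ against 36.9% and 53.3% in Ezh2m-/p+ zygotes.

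Fam163a had 9 peaks in the Ezh2m+/p+ and 10 in the Ezh2m-/p+ paternal list. Of these, 5 in each list were annotated to introns, and the 5 lay in intron 1 of 4. The peak of largest fold in Ezh2m+/p+ zygotes was one of them, at chr1:156184801-156193199 (8399 bp, fold 457, the third of its list). The Ezh2m-/p+ peak that contained it, at chr1:156182201-156194599, was the longest of this gene in its list (12399 bp) and had a fold of 40.7. The longest Ezh2m+/p+ peak lay upstream at chr1:156221401-156231799 (10399 bp, fold 9.46) and overlapped 3 Ezh2m-/p+ peaks. The Ezh2m-/p+ peak of largest fold, at chr1:156209401-156210399, was 999 bp long, the shortest length in the lists, with a fold of 94.6, and overlapped no Ezh2m+/p+ peak. All 9 Ezh2m+/p+ and 9 of the 10 Ezh2m-/p+ peaks had a counterpart in the other list.

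The body of Fam163a also held peaks that the lists give to Tor1aip2, which overlaps Fam163a and encodes a torsin activator of the endoplasmic reticulum membrane. There were 5 of them in Ezh2m+/p+ against 2 in Ezh2m-/p+ zygotes, the longest 31999 bp (chr1:156086601-156118599, fold 13.1). Between 156118599 and 156168801 neither list had a peak, and the peaks on either side ended and began at the same base in both lists. Of these 50.2 kb, 50000 bases are undetermined in the assembly (N), where no read can align. Peaks covered 50.9% and 55.7% of the gene body of Fam163a in Ezh2m+/p+ and Ezh2m-/p+ zygotes, but 82.9% and 90.7% of its known sequence, the highest shares of the 3 genes. All 5 exons of the gene lay fully within peaks of both genotypes.

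Suco had 16 peaks in each paternal list, over 108 and 109 kb. The Ezh2m-/p+ peak of largest fold lay upstream of the gene, at chr1:161884401-161895199 (10799 bp), and had a fold of 599, the second of its list. It covered 2 Ezh2m+/p+ peaks, at chr1:161884801-161887399 (2599 bp, fold 12.0) and chr1:161888201-161892599 (4399 bp, fold 156). The Ezh2m+/p+ peak of largest fold, at chr1:161828601-161835199 (6599 bp, fold 181), overlapped Ezh2m-/p+ peaks of fold 23.6 and 9.85. It lay over the start of a shorter transcript, as did the first of these, at chr1:161826601-161833599 (6999 bp). A further start within the gene was covered by peaks at chr1:161857401-161858399 (999 bp, fold 36.1) in Ezh2m+/p+ and chr1:161857201-161858799 (1599 bp, fold 11.8) in Ezh2m-/p+ zygotes. Peaks covered 39.4% of the gene body in Ezh2m+/p+ against 50.9% in Ezh2m-/p+ zygotes, the lowest shares of the known sequence among the 3 genes. Inside the gene, the Ezh2m-/p+ list had short peaks at chr1:161845201-161846199 (999 bp, fold 63.0) and chr1:161847401-161849199 (1799 bp, fold 158) where the other list had none. The Ezh2m+/p+ list had its own at chr1:161825401-161826599 (1199 bp, fold 36.1) and chr1:161859401-161861399 (1999 bp, fold 84.3).

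**Figure D1:**
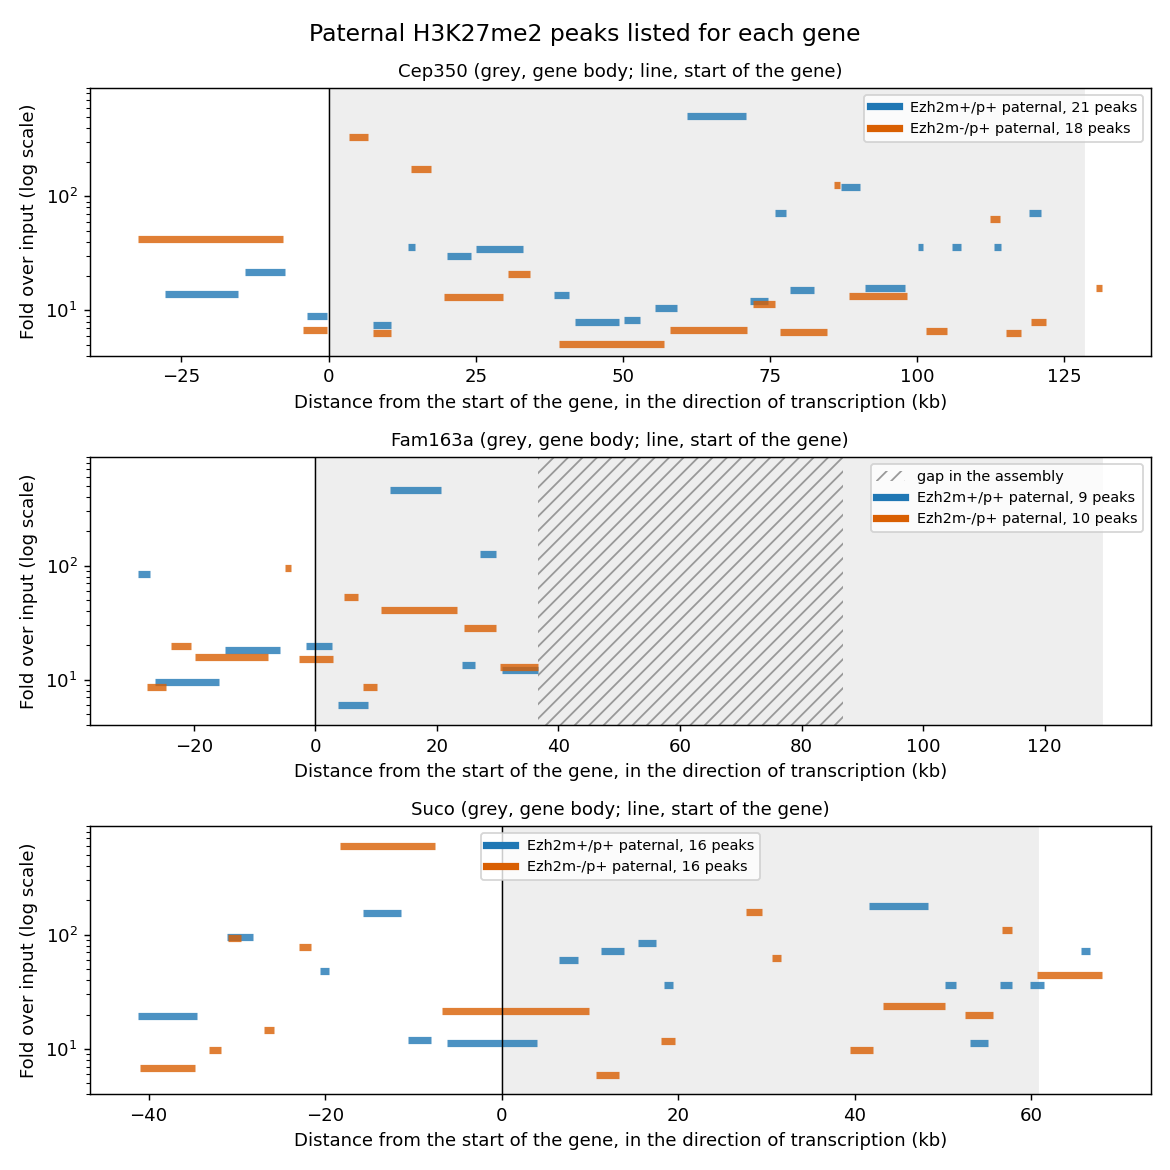
Fold over input (log scale) of each paternal peak listed for Cep350, Fam163a and Suco against its distance in kb from the start of the gene, with bars as long as the peaks, for Ezh2m+/p+ and Ezh2m-/p+ zygotes. The bars with the largest folds, 506 and 457 in Ezh2m+/p+ against 599 in Ezh2m-/p+ zygotes, stand over or beside much lower bars of the other genotype. The genes were chosen by these folds, so this contrast is a description. The hatched part of Fam163a is a gap in the assembly.

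Over the 3 genes, member peaks had a median length of 2999 bp in Ezh2m+/p+ and 3199 bp in Ezh2m-/p+ zygotes, beside 1799 and 1999 bp over the whole paternal lists. In all, 13 of 46 and 16 of 44 members were longer than 5 kb, but the share of such peaks over the lists was not taken. The summed length of all members was 189554 bp in Ezh2m+/p+ and 237956 bp in Ezh2m-/p+ zygotes, a ratio of 1.26. The covered sequence of the whole lists had a ratio of 1.56. The ratio was 1.30 for Cep350, 1.07 for Fam163a and 1.36 for Suco. By annotation, 11 Ezh2m+/p+ and 12 Ezh2m-/p+ members lay in promoters (3 kb or less from a start site), 16 and 13 in exons, 10 and 11 in introns, 2 and 2 in UTRs and 7 and 6 in distal intergenic sequence. Over the lists, promoter peaks made up 17.3% and 16.9%, exon peaks 9.59% and 10.1%, intron peaks 28.2% and 27.3% and distal intergenic peaks 40.2% and 40.7%. The share of UTR peaks over the lists was not taken.

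Although the genes were chosen for single peaks of large fold, most of their peaks were not of that kind. The median fold of the members was 35.4 in Ezh2m+/p+ against 15.7 in Ezh2m-/p+ zygotes, beside 36.1 and 15.8 over all paternal peaks of each list. The gap between the genotypes was smaller among peaks over 2000 bp, where the median was 15.8 for 31 members in Ezh2m+/p+ against 13.3 for 32 in Ezh2m-/p+ zygotes, beside 19.3 and 13.8 over the lists. A fold over 100 was listed for 6 members in each genotype, and a fold under 10 for 6 of 46 members in Ezh2m+/p+ and 14 of 44 in Ezh2m-/p+ zygotes. Over the lists, 7.56% and 11.7% of peaks had a fold over 100, and 16.1% and 31.8% had one under 10. Just around the members chosen, the Ezh2m+/p+ list had larger folds only for a peak of Kcnh1 (518) and the next for Spata17 (433), Htr1d (427) and Tnr (409). In the Ezh2m-/p+ list Atrn (725) stood before Suco, and Mgat5 (536), Ptpra (504), Astn1 (489) and Rasal2 (481) came after it. Most of these peaks also lay on chromosome 1, which held 7 of the 20 largest folds in Ezh2m+/p+ and 10 of 20 in Ezh2m-/p+ zygotes, and 13.7% and 11.5% of all peaks of these lists.

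The folds took regular values. In the Ezh2m+/p+ paternal list 29 of the 46 members had a fold that was a whole multiple of 6.02, within 0.001 of a multiple, and in the Ezh2m-/p+ list 14 of the 44 had a whole multiple of 7.88, where 69.9% and 49.5% of all peaks of these lists did. All 12 members with a fold over 100 were among them, as were 1351 of the 1351 and 2659 of the 2662 peaks over 100 of the whole lists. The largest folds of Cep350 and Fam163a in Ezh2m+/p+ zygotes equalled 84 and 76 of these steps, and that of Suco in Ezh2m-/p+ zygotes 76. The Ezh2m-/p+ peaks that contained the first 2 equalled 0.861 and 5.17 steps. Members at a whole multiple were shorter than the others, with median lengths of 2199 against 4199 bp in Ezh2m+/p+ and 1499 against 3899 bp in Ezh2m-/p+ zygotes, as were those of the whole lists (1599 against 2599 bp in both). The highest fold of a member off the steps was 34.6 and 53.2, respectively. The lists hold no read counts, and how many input reads stand behind each fold was not tested.

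The question whether the marked places at these genes were shared by the genotypes was addressed by position, with an overlap of at least 1 bp. Of the 46 Ezh2m+/p+ members, 41 (89.1%, 95% Wilson interval 77.0 to 95.3%) overlapped a peak of the Ezh2m-/p+ paternal list, where 66.1% of all Ezh2m+/p+ paternal peaks and 81.4% of those on chromosome 1 did. In the other direction, 33 of 44 Ezh2m-/p+ members (75.0%, 60.6 to 85.4%) overlapped an Ezh2m+/p+ paternal peak, beside 45.7% of the list and 62.4% of its peaks on chromosome 1. The shares of the members lay above those of the lists, but those of chromosome 1 fell within the members' intervals. These intervals cover the sampling of peaks only and take adjoining peaks as independent, although 1 Ezh2m-/p+ peak entered as many as 4 pairs. They therefore cannot decide whether the members differ from either background. Members were also longer than the peaks of the lists (median 2999 and 3199 against 1799 and 1999 bp). The part of length in the shares was not tested. Peaks without a counterpart were short, with a median of 1199 bp for the 5 in Ezh2m+/p+ and 1399 bp for the 11 in Ezh2m-/p+ zygotes, against 3199 and 3999 bp for those with one. By sequence, 86.8% of the bases of Ezh2m+/p+ members and 70.2% of those of Ezh2m-/p+ members were also in a peak of the other genotype.

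The Ezh2m+/p+ members formed 48 pairs with the Ezh2m-/p+ paternal peaks that they overlapped, and 6 Ezh2m+/p+ and 12 Ezh2m-/p+ members met more than 1 peak of the other list. These rest on 41 Ezh2m+/p+ and 34 Ezh2m-/p+ peaks, and 1 Ezh2m-/p+ peak entered as many as 4 pairs. The fold was higher in Ezh2m+/p+ zygotes in 31 pairs (64.6%) and in Ezh2m-/p+ zygotes in 17, while it was higher in Ezh2m+/p+ zygotes in 60.4% of the 12640 overlapping pairs of the whole paternal lists and in 62.4% of those on chromosome 1. The share of the members was thus near the background. At least 1 fold was over 100 in 11 pairs, and both were in 1, the Suco pair of 156 and 599. In the 21 pairs with neither fold at a whole step, the ratio of the Ezh2m-/p+ to the Ezh2m+/p+ fold had a median of 0.772 and ran from 0.347 to 3.05. Because the genes were chosen by their largest folds, the lower folds beside these in the other list are a description only. The share of pairs with both folds over 100 was not taken over the whole lists.

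**Figure D2:**
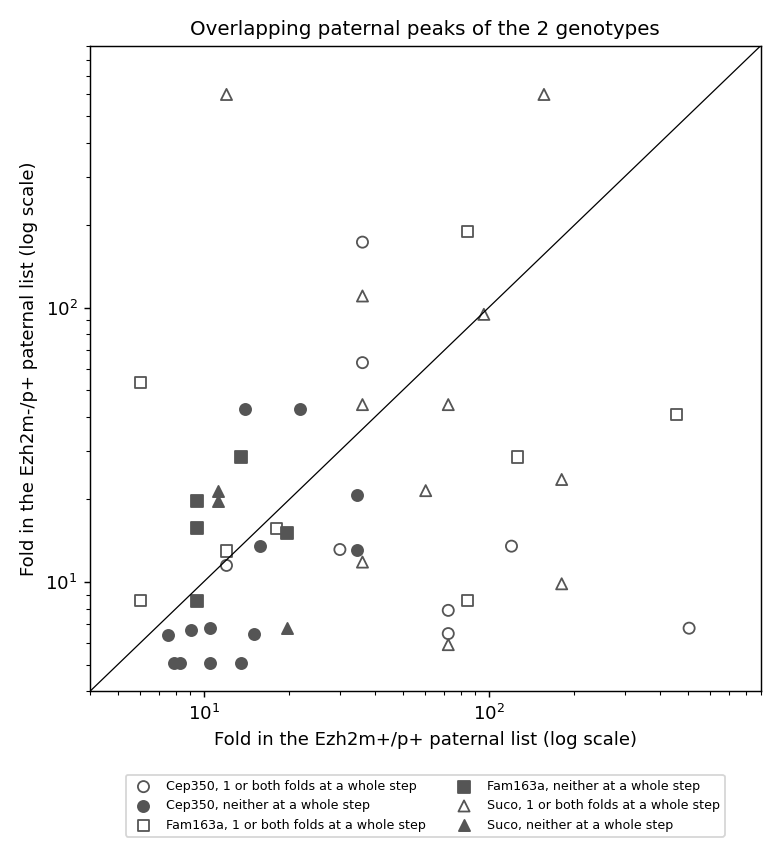
Fold of each of the 48 pairs of overlapping paternal peaks in Ezh2m+/p+ (x axis) and Ezh2m-/p+ zygotes (y axis), both on log scales, with the line of equal folds. Open symbols are pairs with a fold at a whole multiple of the list's step, and all 11 pairs with a fold over 100 are of this kind.

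Peaks were dense well beyond the genes. Within 1 Mb on each side of Cep350 and Fam163a, taken as 1 region of 2.36 Mb, the paternal lists had 199 peaks in Ezh2m+/p+ (84.3 per Mb) and 163 in Ezh2m-/p+ zygotes (69.1 per Mb). Around Suco they had 190 (92.2 per Mb) and 186 (90.3 per Mb). Chromosome 1 as a whole had 12.5 and 13.4 paternal peaks per Mb, and chromosomes 1 to 19 and X had 6.78 and 8.67. The density was thus 6.73 and 5.16 times that of chromosome 1 around Cep350 and Fam163a, and 7.36 and 6.75 times around Suco. Of 196 windows of 1 Mb on chromosome 1, no more than 10 were denser than either region. Peaks covered 33.3% and 42.8% of the first region and 28.8% and 41.8% of the second, against 3.68% and 5.39% of chromosome 1. Taken singly, 168 and 137 peaks lay in the region of Cep350 (78.9 and 64.4 per Mb) and 199 and 163 in that of Fam163a (93.4 and 76.5 per Mb).

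Fewer peaks lay below Cep350 than above it. The Mb below the gene held 15 and 11 paternal peaks, while the Mb above Fam163a held 139 and 116. All of the former lay within 145 kb of the gene, and the bins from 300 kb to 1 Mb below the start were empty in both lists. Suco had 128 and 111 peaks in the Mb below and 53 and 66 in the Mb above. Each of the 100 kb bins next to the starts of the 3 genes, on either side, held at least 6 peaks in both genotypes.

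**Figure D3:**
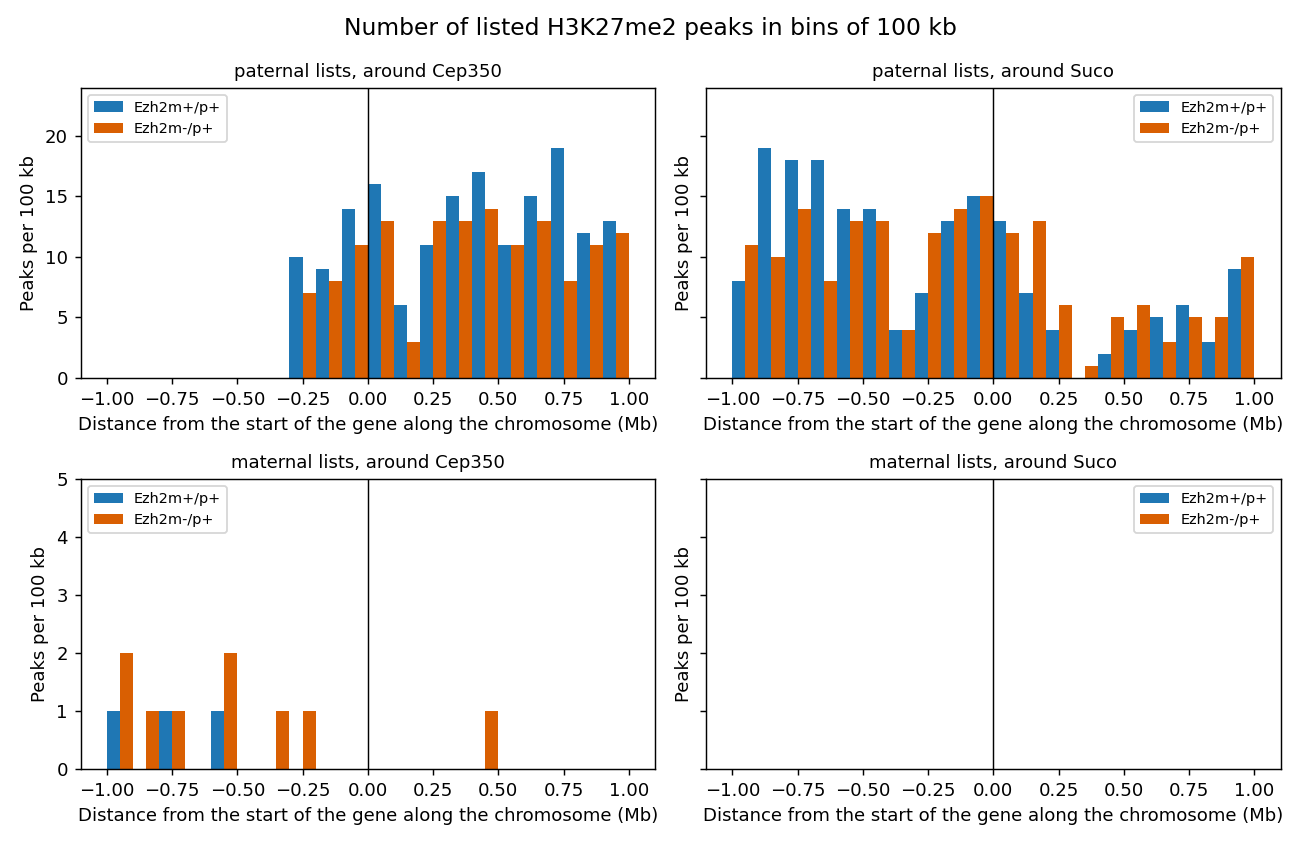
Number of listed peaks in bins of 100 kb by distance in Mb from the start of Cep350 (left) and of Suco (right), along the chromosome, in the paternal (top) and maternal lists (bottom) of Ezh2m+/p+ and Ezh2m-/p+ zygotes. Paternal peaks are absent from 0.3 to 1 Mb below the Cep350 start, where most of the maternal peaks lie, and the maternal panel of Suco is empty.

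In the maternal lists, the region of Cep350 and Fam163a held 3 peaks in Ezh2m+/p+ against 12 in Ezh2m-/p+ zygotes, and the region of Suco held 0 in both. The first region thus had 1.27 and 5.08 maternal peaks per Mb, beside 2.31 and 4.85 over chromosome 1. In Ezh2m-/p+ zygotes its maternal density was near that of the chromosome. None of the 15 overlapped a paternal peak of its genotype. The maternal peak nearest to a member gene lay 412 kb below Cep350 in Ezh2m+/p+ zygotes, at chr1:155429601-155433399 (fold 6.03, nearest gene Xpr1, a phosphate exporter). In Ezh2m-/p+ zygotes it lay 171 kb below, at chr1:155672401-155674399 in an intron of Lhx4, a LIM homeobox gene of the developing pituitary (fold 28.3). Lists of the maternal genome gave at least 1 peak to 14.6% of 21631 protein-coding genes in Ezh2m+/p+ against 21.1% in Ezh2m-/p+ zygotes, and those of the paternal genome to 20.3% and 23.8%. Only reads that cover a variant between C57BL/6 and PWK can be assigned to a parent, and the part of variant density in these counts was not tested. By depth and coverage over the genome, the paper reports less H3K27me2 on the paternal than on the maternal side. Counts of called peaks are another measure and do not give the level of the mark.

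Genes beside the members carried paternal peaks as well. In the region of Cep350 and Fam163a, 17 genes, these members among them, had a paternal peak in at least 1 genotype, 8 a maternal peak and 3 both. The most paternal peaks, more than those of Cep350, were given to Ralgps2, an exchange factor for Ral GTPases, with 24 in Ezh2m+/p+ against 22 in Ezh2m-/p+ zygotes. Abl2, a non-receptor tyrosine kinase, had 17 and 15, and Tex35, a gene named for its testis expression, 16 and 13. In the region of Suco, 27 genes, Suco among them, had a paternal peak and 0 a maternal peak. Fasl, the ligand of the death receptor Fas, had 22 and 25 peaks, Dnm3, a dynamin GTPase, 16 and 21, Tnfsf4, the ligand of OX40, 17 and 16, and Prdx6, a peroxiredoxin, 20 and 12. All 7 of these neighbours had more paternal peaks than Fam163a in both genotypes, with largest folds from 144 to 441.

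Whether the members and their neighbours formed a single block depended on the distance over which peaks were joined. When paternal peaks less than 50 kb apart were joined, the genes fell into 3 runs in both lists, of which the first 2 were parted by the assembly gap within Fam163a. At 100 kb a single run held all 3 genes in both lists, and it ended at 162152399 in Ezh2m+/p+ against 163023999 in Ezh2m-/p+ zygotes. At 200 kb the block ran from 155700001 to 163010999 (7.31 Mb) in Ezh2m+/p+ zygotes, contained all 3 genes and began 145 kb below Cep350. The paternal lists had 891 and 777 peaks in it, 36.4% and 29.7% of those of chromosome 1, on 3.74% of its length. Maternal peaks inside it numbered 2 and 3. Below it, 22.6 Mb held 0 Ezh2m+/p+ and 2 Ezh2m-/p+ paternal peaks but 78 and 213 maternal peaks. Above it, 8.03 Mb held 0 and 3 paternal and 35 and 69 maternal peaks. Both stretches were delimited as the sequence up to the next Ezh2m+/p+ paternal peak, so the counts of 0 in that list follow from the definition. In the Ezh2m-/p+ list the block began 200 bp earlier, at 155699801, and ended at 163023999, 251 kb before the next paternal peak of that list, with no maternal peak of either genotype in between. In both lists the lower edge was preceded by more than 22 Mb without a paternal peak of the same list. In the stretches beside the block as delimited in Ezh2m+/p+ zygotes, maternal peaks were listed at 3.45 to 9.41 per Mb, against 0.274 and 0.410 per Mb within it.

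**Figure D4:**
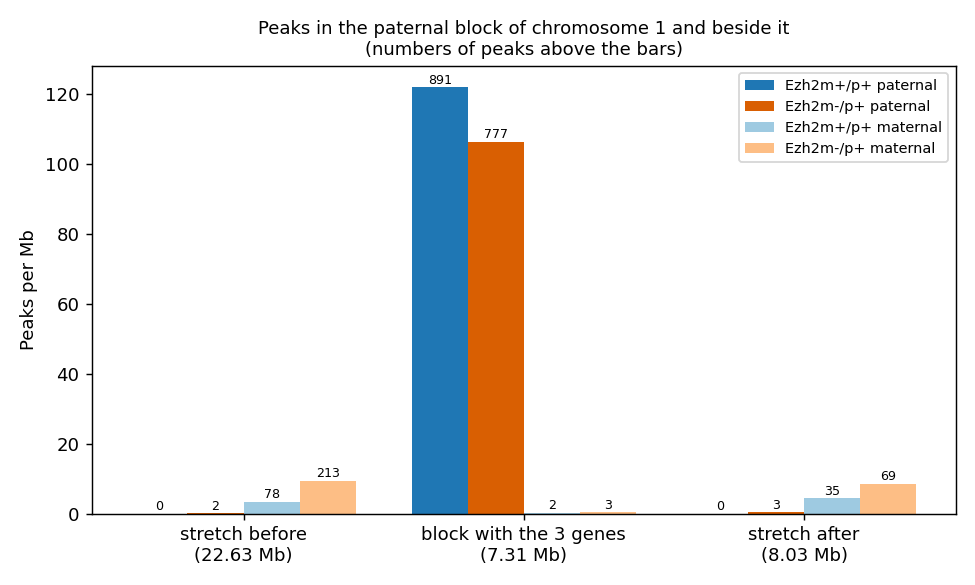
Peaks per Mb (bars) and number of peaks (above the bars) of the 4 lists in the block of paternal peaks that holds Cep350, Fam163a and Suco and in the stretches before and after it, as delimited in the Ezh2m+/p+ paternal list. The block has 891 and 777 paternal against 2 and 3 maternal peaks, and the stretches beside it have 0 to 3 paternal against 35 to 213 maternal peaks. The stretches hold 0 Ezh2m+/p+ paternal peaks by definition.

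Base composition was examined as a feature that the choice of genes did not use. The peaks of the 3 genes had a GC content of 42.2% in Ezh2m+/p+ against 41.8% in Ezh2m-/p+ zygotes, between the 38.8% and 38.9% of the sequence between them and the 43.8% and 43.1% of all paternal peaks on chromosome 1. Single peaks ranged from 33.6% to 52.3% in Ezh2m+/p+ and from 32.7% to 49.99% in Ezh2m-/p+ zygotes. Fam163a peaks were the richest in GC (46.4% and 46.6%), followed by those of Cep350 (41.1% and 41.1%) and Suco (39.9% and 39.2%), and each gene's peaks exceeded the sequence between them. CpG were as frequent in the members (9.11 and 8.74 per kb) as in the paternal peaks of chromosome 1 (9.18 and 8.68). In Cep350, where the start of the gene is not in a peak, the sequence between the peaks had more CpG (8.75 and 10.3 per kb) than the peaks (8.42 and 8.09). The block differed little from the stretches beside it, with a GC content of 41.6% against 40.6% before and 42.5% after, and 8.10 CpG per kb against 7.83 and 9.37. Repeats (soft-masked sequence) made up 28.1% of the block, 35.3% of the stretch before and 28.8% of the stretch after.

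Peaks of genes related in function to the members were counted from lists of such genes, and are not compared with those of the members, which were chosen for their paternal peaks. Of 17 other centrosome genes, 6 had a paternal peak in Ezh2m+/p+ against 5 in Ezh2m-/p+ zygotes, and 4 and 2 had a maternal peak. Over all protein-coding genes these shares were 20.3% and 23.8% for paternal and 14.6% and 21.1% for maternal peaks, so the counts of this short list are not told apart from the background. Cep170, a centriolar appendage protein whose gene is also on chromosome 1, had the most paternal peaks (5 and 7). The microtubule anchor Nin had 3 and 2, Ccp110, which caps centrioles, 2 and 2, Cep63 1 and 2, Cep192 1 and 4, and Cep43, a partner of CEP350, 1 and 0. Maternal peaks were listed for Ninl (2 and 0), Mapre1 (2 and 1), Cep164 (0 and 5), Cep135 (1 and 0) and Cep63 (1 and 0). Of 8 genes related to Suco by SUN domains or as partners, 2 and 3 had a paternal peak and 3 and 5 a maternal peak, beside the same background. Tapt1, the partner of SUCO, had 2 and 5 paternal and 1 and 3 maternal peaks, Sun3 1 and 1 paternal and 0 and 1 maternal, and Syne1 0 and 1 paternal and 0 and 2 maternal. Syne2 (2 and 4), Sun5 (2 and 0) and Sun1 (0 and 1) had maternal peaks only. Fam163b, the other gene of its family, had no peak in any of the 4 lists.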

How the data were processed

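H3K27me2 was measured by ULI-NChIP-seq with 1 library and 1 input per genotype, sequenced as paired reads of 150 bp. The authors used Trimmomatic 0.38 for trimming and Bowtie2 for alignment to mm10, filtered by mapping quality with SAMtools, removed duplicates with Picard, split parental reads with SNPsplit, called peaks with SICER against input (over 1000 bp, fold over 5) and annotated them with ChIPseeker. The value used is the deposited fold, the ratio of H3K27me2 to input reads computed by the authors' peak caller. Starts lie on a grid of 200 bp. The deposited coverage table was not used here. No column of another series was present.

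Members, gene lists and comparisons were chosen with earlier results of these data known. In full are given, per gene and list, the peaks of largest fold, greatest length and least distance to a start site. Also named are the 4 flanking genes with most paternal peaks per region (1 of them is not reported here), genes of 3 fixed lists (centrosome, SUN domain, FAM163) with a peak, and the 6 largest folds of each paternal list. Further peaks, Lhx4, Xpr1, Tor1aip2, the fold steps, the block and the assembly gap were picked after their values were seen. Symbols were found for 11459 of 11472 gene identifiers. Peaks were counted in a region by their midpoint. Sequences are from RefSeq (GRCm38.p6), whose promoter table matched 2 of the 3 genes, and exons from GENCODE vM21, whose transcripts matched those of all 90 members. Python 3.11.15 was run with pandas 2.3.3, numpy 2.4.6, matplotlib 3.10.9 and scipy 1.17.1. Overlap counting was tested on simulated data. Alternatives were peaks over the gene body, stricter limits (fold over 10 or length over 2000 bp), flanks of 0.5 and 2 Mb, equally long lists, reciprocal overlap (50%), overlap by covered base pairs, weighted folds and other sequence backgrounds.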

Additional observations from a re-analysis of the deposited data

How the results depend on the processing

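Of 66 alternative values for 22 results, 49 stayed within 1.5 times the value given (counts and densities) or within its interval, 17 did not, and 0 changed sign. Only the differences in GC content have a sign that could change. The interval of the Ezh2m+/p+ median fold ran from 12.4 to 72.2, so the 15.8 of peaks over 2000 bp counted as unmoved. Lists of equal size left the densities of the shorter Ezh2m+/p+ list at the values given. A length over 2000 bp left 8 Suco peaks in each genotype and moved the density around Cep350 and Fam163a to 53.8 per Mb in Ezh2m+/p+ zygotes and that around Suco to 51.0 and 59.7 per Mb in Ezh2m+/p+ and Ezh2m-/p+ zygotes. A fold over 10 left 10 Cep350 peaks in Ezh2m-/p+ zygotes, and 10 peaks of each genotype overlapped the body of Suco. The share of Ezh2m+/p+ members with an Ezh2m-/p+ counterpart was 67.5% at a fold over 10 in both lists and 96.8% at a length over 2000 bp (all peaks, 45.3% and 74.2%). With a reciprocal overlap of 50% the shares were 41.3% and 43.2% (all peaks, 31.4% and 24.6%). The mean fold weighted by length was 79.7 in Ezh2m+/p+ against 55.6 in Ezh2m-/p+ zygotes, and the median among peaks over 2000 bp was 15.8 against 13.3. The GC content of the members minus that of all paternal peaks was -3.34 and -2.82 points, and minus that of chromosome 1 it was 1.05 and 0.613 points. The cause of these moves was not tested, beyond the fewer peaks that a stricter limit leaves. No paired analysis was possible because each genotype has 1 H3K27me2 library, and for the same reason no replicate could be left out. The lists give no depth, so that a place without a peak is not shown to lack the mark.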

Other observations

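The separation seen around Cep350, Fam163a and Suco was not complete elsewhere on chromosome 1. Of its 196 windows of 1 Mb, 32 held at least 20 paternal peaks in Ezh2m+/p+ zygotes, and 17 of these had no maternal peak. In Ezh2m-/p+ zygotes 44 windows held as many, and 13 of these had no maternal peak. Windows without a paternal peak numbered 93 and 88, of which 64 and 74 held a maternal peak. The limit of 20 peaks was chosen with earlier results of these data known.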
